A study of Mus musculus with 12 samples.

Results

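The Hox genes encode homeodomain transcription factors that lie in 4 clusters on 4 chromosomes. All 39 protein-coding mouse genes with a symbol of Hox, a cluster letter from a to d and a number were followed, out of 21887 genes annotated as protein-coding on the autosomes and the X and Y chromosomes. The data were peak lists from chromatin immunoprecipitation and sequencing (ChIP-seq) with an antibody against MACF1, a cytoskeletal linker between actin and microtubules. MC3T3-E1, a mouse osteoblast line, was used in 2 states: cells labelled control, and cells labelled MACF1 knockdown. Each state had 3 immunoprecipitates, labelled 1, 2 and size3, and each immunoprecipitate had an input of its own, so that 12 samples gave 6 lists. The knockdown reagent, what the control cells received and the meaning of size3 are not given in the sources used here, and the labels name more than 1 antibody lot without saying which library used which. The labels do not say whether libraries of a state came from separate cultures, so the p-values below measure only the spread between these libraries. A Hox gene was counted as having a peak where a peak overlapped its RefSeq GRCm38 span or the 5 kb on either side by at least 1 bp. The RefSeq table used here gives no exons, so exons, introns and untranslated regions were not assigned.

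Hox genes within a cluster stand in the order in which they are used along the head-to-tail axis, and genes of the same number in different clusters are paralogs. Low-numbered genes act in the hindbrain, pharyngeal arches and neck, and high-numbered genes act in the trunk, tail and limbs, where they shape the skeleton. In cells that do not use them, the clusters are known to be held silent by Polycomb proteins over CpG-rich DNA. MC3T3-E1 comes from skull bone, part of a skeleton that forms largely without Hox expression. The lists hold no RNA measurement, so osteoblast markers and Hox expression could not be checked, and the MACF1 knockdown itself could not be checked from DNA.

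The 3 control lists held 198 to 2196 peaks and the 3 knockdown lists 4513 to 21398, from 10698067 to 33085606 and from 5575205 to 18454330 immunoprecipitate reads after duplicate removal. The redundant rate, the share of reads that repeated a position, in the order 1, 2 and size3, was 0.25, 0.16 and 0.01 for the control immunoprecipitates. It was 0.51, 0.65 and 0.02 for those from knockdown cells. The deposited false discovery rate was at most 5% for 1, 0 and 0 peaks of the control lists and for 21159, 51 and 10161 peaks of the knockdown lists, in the same order. Peak numbers, and the counts at that rate, were higher in each knockdown list than in any control list. Read numbers overlapped between the states. The redundant rate was higher in knockdown within each label, but in both states it was far lower in size3 than in libraries 1 and 2. The part of these values in the differences below was not tested.

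No Hox gene had a peak in any of the 3 control libraries. In knockdown cells 30 of the 39 had a peak in library 1 (76.9%), 2 in library 2 (5.13%) and 14 in library size3 (35.9%). Over all 21887 genes the same rule was met, in the order 1, 2 and size3, by 43.7%, 7.95% and 35.5% in the knockdown libraries and by 1.38%, 0.315% and 5.49% in the controls. By share, Hox genes stood above the background in knockdown 1 and near it in knockdown size3. In knockdown 2 and the 3 controls they were slightly below it, on 2 and 0 genes, too few to read as a difference. Restriction to short genes changed the direction only in knockdown 2, on the same 2 genes. Among genes of at most 10 kb, Hox shares were 72.7%, 6.06% and 27.3% in knockdown 1, 2 and size3, against 25.6%, 1.54% and 19.2% of all. The mean share of Hox genes with a peak was 39.3% ± 36.0 (SD, n = 3) in knockdown and 0 in all 3 control libraries. The groups did not overlap, and the exact two-sided permutation test gave p = 0.1, the smallest that 3 libraries against 3 can give. With the share over all genes subtracted in each library, the mean was 10.3 ± 19.9 percentage points in knockdown and -2.40 ± 2.73 in control (SD, n = 3 each). That difference of 12.7 points had an exact permutation p of 0.4, and it was below the spread between the knockdown libraries. It rested largely on knockdown 1: without that library it was 1.21 points, and without knockdown 2 it was 19.2. The mean share of Hox genes with a peak in knockdown was 20.5% without knockdown 1.

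**Figure D1:**
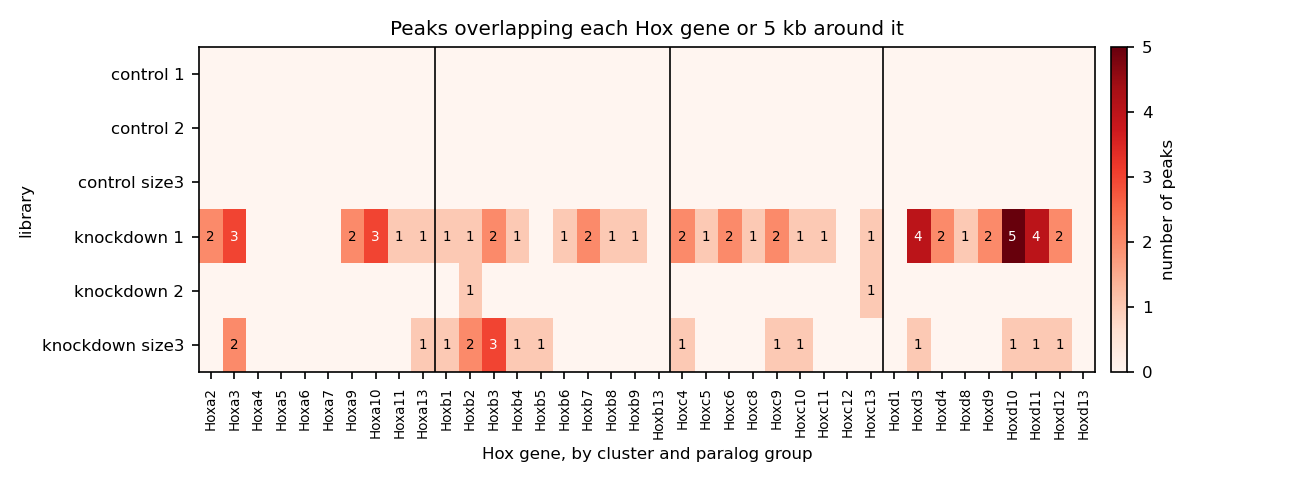
Number of peaks that overlap each of 38 of the 39 Hox genes or 5 kb around it (columns, ordered by cluster and paralog number) in each of the 6 libraries (rows), with darker red for more peaks and blank cells for none. The 3 control rows are empty, knockdown 1 fills 29 columns, knockdown size3 14 and knockdown 2 only Hoxb2 and Hoxc13.

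By the number of libraries with a peak, the 39 genes divided into 8 with none, 17 with 1, 13 with 2 and 1 with 3. The 8 genes without a peak anywhere were Hoxa4, Hoxa5, Hoxa6, Hoxa7, Hoxb13, Hoxc12, Hoxd1 and Hoxd13. Hoxb2 was the 1 gene with a peak in all 3 knockdown libraries and no control library, which is 2.56% of the Hox genes against 2.35% of all genes. Of the 39, 13 (33.3%) had a peak in both knockdown 1 and knockdown size3, against 23.4% of all genes, and Hoxb5 was the only Hox gene with a peak in size3 but not in knockdown 1. A peak in at least 1 knockdown and no control library was found for 31 Hox genes (79.5%), against 52% of all genes. At least 1 control library had a peak for 0 Hox genes and for 6.7% of all genes. Genes are not independent here, since 20 of the 30 peaks of knockdown 1 and 5 of the 12 of size3 counted for more than 1 Hox gene.

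**Figure D2:**
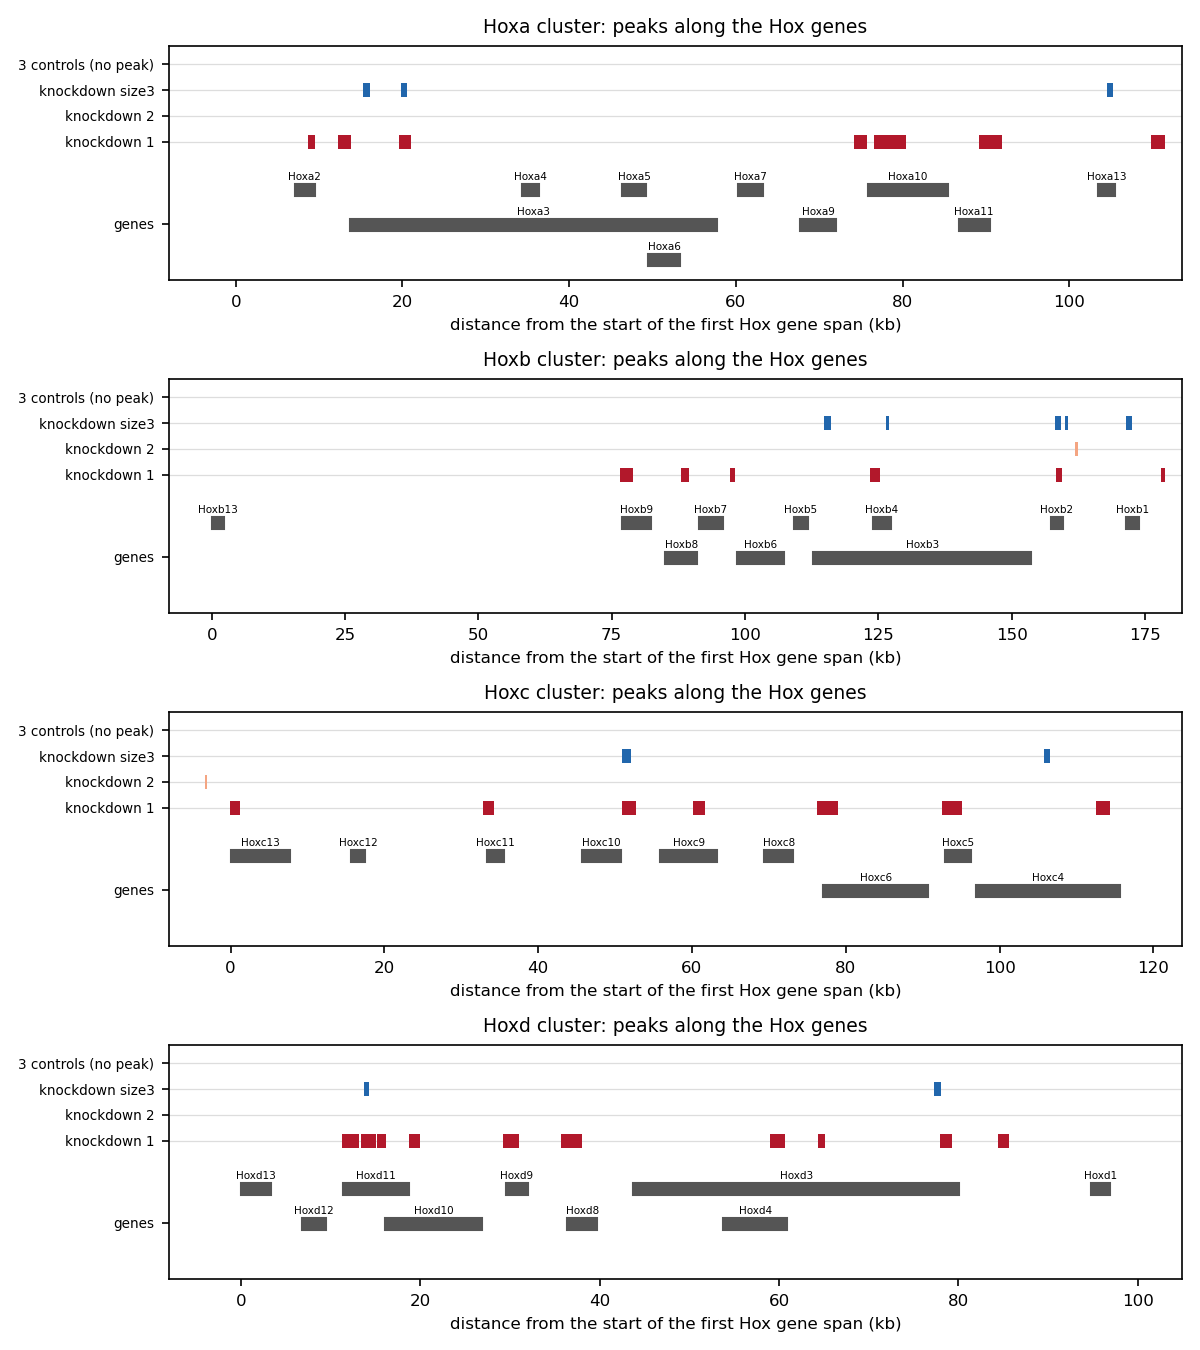
Maps of the 4 clusters, drawn to scale, with distance in kb from the start of the lowest Hox gene span on the horizontal axis, the spans of 38 Hox genes as grey bars in up to 3 rows, and peaks within 5 kb of a Hox gene as coloured bars, 1 row per knockdown library and 1 empty row for the 3 controls. Knockdown 1 has peaks along all 4 clusters, with an empty stretch over Hoxa4 to Hoxa9, and size3 peaks gather at the Hoxa3, Hoxb1 to Hoxb5 and Hoxd3 ends and at a few 5′ genes.

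The Hoxa cluster spans chr6:52155367-52260880, 105.5 kb with 11 genes. Knockdown 1 had 7 peaks at 7 of these genes, knockdown size3 had 3 peaks at 2 genes, and knockdown 2 had none. Its nearest control peak lay 93.2 kb away, in control size3. Hoxa3, which patterns the throat and thymus, had 3 peaks in knockdown 1 and 2 in size3. A pair of these met at chr6:52175134-52175963, where knockdown 1 had 82 reads at a fold enrichment of 3.82 and size3 had 18 reads at a fold of 8.18. Size3 had its highest Hoxa fold, 11.29 with 23 reads, at chr6:52170577-52171507 in the Hoxa3 span. The highest fold of all Hox peaks of knockdown 1, 7.06 with 96 reads, lay between Hoxa2 and Hoxa3 and ran into the Hoxa3 span at chr6:52167592-52169172. At Hoxa2, which sets the identity of the pharyngeal arch that forms the middle ear, knockdown 1 had 82 reads and a fold of 5.88 at chr6:52164026-52164835, the Hox peak with the best score (173.5). Size3 had no peak within 5 kb of Hoxa2. Hoxa10, known for its role in the uterus and in osteoblasts, held the Hox peak with the most reads, 300 at a fold of 3.47 over 3800 bp (chr6:52231912-52235711). The next in reads, 202 at a fold of 3.16, covered the start side of Hoxa11, a forearm and kidney gene, at chr6:52244469-52247232. Hoxa13, which acts in the digits, had 78 reads at a fold of 3.90 in knockdown 1, 4.29 kb outside the gene, and 17 reads at a fold of 9.75 inside the gene in size3 (chr6:52259860-52260633). Between these ends, 53.2 kb of the cluster (chr6:52176400-52229561) held no peak in knockdown 1, with Hoxa4, Hoxa5, Hoxa6, Hoxa7 and Hoxa9 wholly inside it. The empty stretch in size3 was 83.9 kb long and took in Hoxa10 and Hoxa11 as well.

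The Hoxb cluster spans chr11:96194316-96368254, 173.9 kb with 10 genes, of which Hoxb13 stands apart from the rest. Knockdown 1 had 6 peaks at 8 genes, size3 5 peaks at 5 genes and knockdown 2 1 peak at 1 gene, and the nearest control peak was 739.2 kb away. Hoxb2, which acts in the hindbrain, had 0 peaks in each control library, 1 in knockdown 1, 1 in knockdown 2 and 2 in knockdown size3. The knockdown 1 peak (93 reads, fold 3.33) and a size3 peak (25 reads, fold 6.69) shared chr11:96352622-96353573 within the gene, with summits 142 bp apart. The second size3 peak (18 reads, fold 7.88) lay at chr11:96354311-96354925. The knockdown 2 peak lay elsewhere, at chr11:96356280-96356828, 2.26 kb outside the gene, with 11 reads, a fold of 15.72 and a false discovery rate of 100%. Hoxb2 was thus found in 3 libraries, but only in 2 of them at the same place. Hoxb1, a marker of the fourth hindbrain segment, had its size3 peak over the gene start at chr11:96365713-96366849 (31 reads, fold 10.24), while the knockdown 1 peak (22 reads, fold 5.08) was 4.14 kb outside the gene. Hoxb3 had 2 peaks in knockdown 1 and 3 in size3, and its long span also contains Hoxb4, a regulator of blood stem cells. At Hoxb4 the 2 libraries differed in place: knockdown 1 covered chr11:96317796-96319560 (99 reads, fold 3.88) and size3 chr11:96320689-96321331 (16 reads, fold 7). Hoxb9, a thoracic gene, had the most reads of this cluster, 176 at a fold of 4.91 (chr11:96270818-96273327), and no peak in size3. The highest fold in knockdown 1, 5.70 with 45 reads, was at chr11:96291477-96292377 between Hoxb7 and Hoxb6. The size3 peak with the most reads, 32 at a fold of 7.70, was at chr11:96309167-96310394 and counted for Hoxb3 and Hoxb5.

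The Hoxc cluster spans chr15:102921131-103036856, 115.7 kb with 9 genes. Knockdown 1 had 7 peaks at 8 genes, size3 2 peaks at 3 genes and knockdown 2 1 peak at 1 gene, with the nearest control peak 182.1 kb away. Hoxc13, known for its role in hair and nails, had a peak over an end of its span in knockdown 1 with 133 reads and a fold of 2.54, the lowest fold of the Hox peaks (chr15:102921062-102922400). The knockdown 2 peak (11 reads, fold 11.23, false discovery rate 100%) lay 3.08 kb from the gene at chr15:102917737-102918054, and size3 had none. Hoxc10, which acts in the lumbar spinal cord and hindlimb, shared a peak with Hoxc9: knockdown 1 had 97 reads and a fold of 4.15, size3 had 32 reads and a fold of 5.50, and their summits were 56 bp apart in the intergenic stretch chr15:102972091-102973220. The most reads in knockdown 1 were 188, at a fold of 4.12, over Hoxc5 (chr15:103013688-103016209). The highest fold, 4.69 with 114 reads, was at Hoxc4 (chr15:103033726-103035456). Size3 had its Hoxc4 peak elsewhere in the gene, at chr15:103026916-103027712, with 28 reads and a fold of 5.19.

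The Hoxd cluster spans chr2:74668225-74765142, 96.9 kb with 9 genes, and its distal genes Hoxd9 to Hoxd13 are known for limb patterning. Knockdown 1 had 10 peaks at 7 genes, more than in any other cluster, size3 had 2 peaks at 4 genes and knockdown 2 had none. The nearest control peak was 715.7 kb away. Knockdown 1 had 4 peaks in a row over Hoxd11, a forearm gene, of 97, 83, 43 and 61 reads at folds of 5.93, 3.78, 5.27 and 4.89 (chr2:74679534-74688223 from the first to the last base). The size3 peak at chr2:74681926-74682562 (20 reads, fold 11.61) lay wholly inside the 83-read peak, with summits 196 bp apart. Hoxd12 had its counts from these peaks through the 5 kb rule, 2 in knockdown 1 and 1 in size3, none of them within the gene. Most reads of this cluster, 136 at a fold of 3.88, were at Hoxd9 (chr2:74697482-74699260). Hoxd10 had 5 peaks in knockdown 1, namely the 4 over Hoxd11, of which those of 43 and 61 reads overlapped its span, and the 136-read peak at Hoxd9, and it had 1 peak in size3. Hoxd3, which acts in the upper neck vertebrae, had 4 peaks in knockdown 1 and 1 in size3. The 1 place where both libraries met there was 61 bp long, at the touching edges of peaks of 92 and 19 reads, with summits 1384 bp apart.

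By paralog number, the 12 genes of groups 1 to 4 had a peak in 10 cases in knockdown 1, 1 in knockdown 2 and 7 in size3. The 11 genes of groups 5 to 8 had 7, 0 and 1, and the 16 genes of groups 9 to 13 had 13, 1 and 6, in the same order. Group 3 was the one group in which every member (Hoxa3, Hoxb3 and Hoxd3) had a peak in both knockdown 1 and size3. Those 3 are also the longest Hox spans, 44009, 40830 and 36279 bp, against a median of 3.74 kb over the 39 genes. In groups 6, 7 and 8 no gene had a size3 peak, while 6 of their 8 genes had one in knockdown 1. Over all genes, 43.7%, 7.95% and 35.5% had a peak in knockdown 1, 2 and size3, and 25.6%, 1.54% and 19.2% of those of at most 10 kb. Beside these shares, 8 genes are too few to read the absence in size3 as a difference. Neighbouring genes also shared peaks. These counts are a description and were not tested.

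Size3 and knockdown 1 overlapped at 5 of the 12 Hox peaks of size3 (41.7%, Wilson 95% interval 19.3 to 68.0%), which are 5 of the 30 Hox peaks of knockdown 1 (16.7%). Over the whole size3 list 2034 of 17592 peaks (11.6%) overlapped a knockdown 1 peak. The interval covers counting error only. Of the 5 places, 4 had summits 56 to 246 bp apart (Hoxc10 with Hoxc9, Hoxb2, Hoxd11 and Hoxa3), and the remaining one was the Hoxd3 edge. The other 7 size3 peaks, among them those with the highest score (Hoxb1) and the second highest fold (Hoxa3), had no counterpart in knockdown 1.

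RefSeq promoter windows, 250 bases before and 50 after a listed start, were at hand for 22 of the 39 genes (24 windows). In knockdown 1 a peak overlapped 9 of the 24 (37.5%), against 16% of 21263 windows of all genes. Size3 overlapped 2 (8.33%), at Hoxb1 and Hoxd11, against 7.55%, and knockdown 2 overlapped none, against 0.0235%. No control peak touched a Hox window, against 0, 0.0047% and 0.207% of all windows in control 1, 2 and size3. Hox windows held a median of 14.5 CG dinucleotides, against 13 over all windows. Among windows with at least 14.5, knockdown 1 overlapped 4 of 12 Hox windows (33.3%) and 25% of all, and size3 1 of 12 (8.33%) and 12% of all. The other lists overlapped none of the 12, against 0.0201% of all such windows in knockdown 2, 0.261% in control size3 and 0 in control 1 and 2. The 9 overlapped Hox windows had a median of 14 CG and the 15 others a median of 20, so within the family the overlapped promoters were not the CG-richest.

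The promoters shown here were the first 6 of 7 windows that lay wholly within a peak, ordered by the number of libraries and then by reads; the seventh was that of Hoxb4. Each run is the 250 bases before a listed start, 5′ to 3′ on the gene's strand, from RefSeq for GRCm38.p6. Capitals mark matches on either strand to 5 motifs. The E-box was searched as CANNTG, and its form CAGCTG, a subset of it, was counted too. The words of E2F, TCF/LEF and homeodomain factors were searched as follows: for E2F the word was GCGGGAA, for TCF/LEF factors it was CTTTGAT, and for homeodomain factors it was TAATTA. The Hoxd11 promoter lay within peaks of both knockdown 1 and size3, and the others within knockdown 1 peaks.
Hoxd11 (chr2:74682073-74682322, plus strand): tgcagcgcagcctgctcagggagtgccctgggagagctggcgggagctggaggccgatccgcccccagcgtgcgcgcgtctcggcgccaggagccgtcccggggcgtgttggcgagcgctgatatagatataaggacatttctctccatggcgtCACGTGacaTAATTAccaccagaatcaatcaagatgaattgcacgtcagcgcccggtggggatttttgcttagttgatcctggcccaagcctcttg
Hoxa10 (chr6:52234940-52235189, minus strand): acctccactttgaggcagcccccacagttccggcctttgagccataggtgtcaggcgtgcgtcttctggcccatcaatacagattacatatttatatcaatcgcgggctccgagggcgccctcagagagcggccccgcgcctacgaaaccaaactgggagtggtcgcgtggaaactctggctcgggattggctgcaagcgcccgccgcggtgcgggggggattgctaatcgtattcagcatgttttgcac
Hoxa11 (chr6:52245811-52246060, minus strand): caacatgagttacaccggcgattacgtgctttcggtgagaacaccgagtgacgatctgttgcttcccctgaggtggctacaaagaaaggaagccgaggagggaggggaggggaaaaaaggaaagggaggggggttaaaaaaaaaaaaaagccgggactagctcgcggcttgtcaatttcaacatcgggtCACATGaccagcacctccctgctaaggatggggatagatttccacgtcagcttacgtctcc
Hoxd9 (chr2:74697513-74697762, plus strand): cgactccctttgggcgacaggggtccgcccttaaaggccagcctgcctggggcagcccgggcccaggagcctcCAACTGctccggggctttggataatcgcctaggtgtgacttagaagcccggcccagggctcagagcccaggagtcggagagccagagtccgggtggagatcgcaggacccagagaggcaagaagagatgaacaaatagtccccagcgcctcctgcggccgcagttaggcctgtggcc
Hoxc4 (chr15:103034145-103034394, plus strand): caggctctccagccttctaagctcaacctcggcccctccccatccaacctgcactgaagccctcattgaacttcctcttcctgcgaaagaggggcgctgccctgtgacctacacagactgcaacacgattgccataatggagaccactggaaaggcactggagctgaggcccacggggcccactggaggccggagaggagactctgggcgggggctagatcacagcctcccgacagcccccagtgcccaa
Hoxd8 (chr2:74704365-74704614, plus strand): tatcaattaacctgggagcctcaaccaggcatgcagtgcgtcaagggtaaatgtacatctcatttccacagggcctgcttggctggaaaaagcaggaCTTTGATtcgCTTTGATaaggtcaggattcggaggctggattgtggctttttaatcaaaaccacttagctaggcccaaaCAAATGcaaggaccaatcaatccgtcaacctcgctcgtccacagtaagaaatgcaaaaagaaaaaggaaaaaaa
The Hoxd11 run belongs to a second listed start inside the gene, and its window held 25 CG, the most of the 9 overlapped ones. Its 2 marked words are the E-box CACGTG and, after 3 further bases, the homeodomain word TAATTA. Hoxa10 and Hoxc4 show no marked word, Hoxa11 and Hoxd9 1 E-box each, and Hoxd8 1 E-box and a repeated TCF/LEF word. Over the full windows of 300 bases, CANNTG was in 17 of 24 Hox windows (70.8%) and 69.0% of all windows, CAGCTG in 4 (16.7%) and 15.6%, and TAATTA in 2 (8.33%) and 4.53%. CTTTGAT was in 1 (4.17%) and 3.22%, and GCGGGAA in 0 and 5.95%. A match describes the letters and shows no binding.

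MicroRNA genes also lie in the clusters, and miR-196 is known to target Hox transcripts. Of 6 such genes, 3 lay wholly within a knockdown 1 peak, and 0 had a peak in any other library. Of all 1228 microRNA genes, a peak overlapped 9.36% in knockdown 1, 0 in knockdown 2, 3.26% in size3, 0.163% in control size3 and 0 in control 1 and 2. Mir196b (chr6:52230081-52230165) was under the peak between Hoxa9 and Hoxa10 with 107 reads and a fold of 3.35. Mir196a-2 (chr15:102973350-102973434) was under the knockdown 1 peak between Hoxc10 and Hoxc9, but outside the size3 peak there. Mir615 (chr15:103014910-103015001) was under the 188-read peak at Hoxc5. Their mature products are shown with the seed, bases 2 to 8, in capitals; the 2 miR-196 forms share the seed AGGUAGU and miR-615-3p does not.
mmu-miR-196b-5p: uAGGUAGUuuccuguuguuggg
mmu-miR-196a-5p: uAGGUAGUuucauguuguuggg
mmu-miR-615-3p: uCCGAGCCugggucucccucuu
Mir196a-1 in the Hoxb cluster gives the same mature miR-196a-5p, and its mature arms lay 5572 bp or more from the nearest knockdown 1 peak. The nearest mature arms of Mir10a and Mir10b lay 548 and 1085 bp from one.

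Of 27 long non-coding RNA genes of the clusters, 13 were overlapped by a peak in knockdown 1 (48.1%), 4 in size3 (14.8%) and 0 in knockdown 2 and the controls. Of all 12727 such genes, a peak overlapped 17.3%, 2.65% and 13.6% in knockdown 1, 2 and size3 and 0.385%, 0.0943% and 1.8% in the controls. The share in the clusters was thus above this background in knockdown 1 and near it in size3, and the part of gene length in these shares was not tested. Hoxb3os, which overlaps the Hoxb3 and Hoxb2 spans, was overlapped in both knockdown 1 (93 reads) and size3 (25 reads), through the shared Hoxb2 peak. Hottip, a transcript at the Hoxa13 end that is known to act on 5′ Hoxa genes, was overlapped in knockdown 1 by a peak of 78 reads and a fold of 3.90, the same peak that gave Hoxa13 its count there. Hoxa11os was overlapped in knockdown 1 (202 reads) and Haglr, in the Hoxd cluster, also there (80 reads). Hotair in the Hoxc cluster and Hotairm1 in the Hoxa cluster had no peak in any library.

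The Hox peaks of knockdown 1 were wide and of modest fold. Their width was 636 to 3800 bp with a median of 1547, against 990 over that library's list, and 26 of 30 were wider than the list median. Reads per peak ran from 22 to 300 with a median of 96.5, against 46 over the list. Fold enrichment ran from 2.54 to 7.06 with a median of 4.13, against 4.98, and 8 of 30 lay above the list median. Of the 30, 24 overlapped a Hox gene span, 23 had their summit in one, and 29 had a false discovery rate of at most 5%. In size3 the 12 Hox peaks were 615 to 1228 bp wide (median 813.5, list 647), held 16 to 32 reads (median 21.5, list 17) and had folds of 5.19 to 11.61 (median 8.03, list 8.10). Of these 12, 9 passed the 5% rate, and 10 overlapped a gene span. The 2 peaks of knockdown 2 had 11 reads each and a rate of 100%. A fold or score belongs to its own list, so these values are not compared between libraries.

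**Figure D3:**
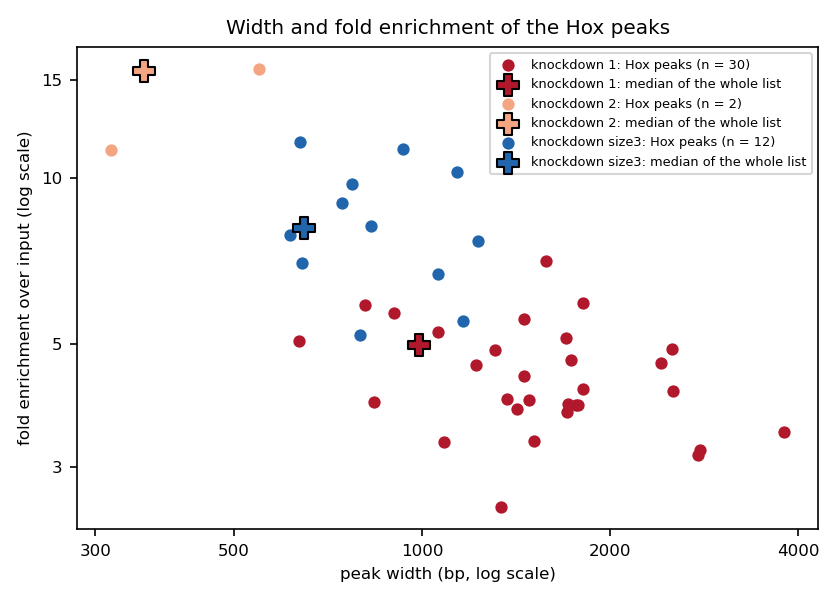
Width (bp, log scale) and fold enrichment over input (log scale) of each Hox peak (circles) in the 3 knockdown libraries, with a cross for the median of each library's whole list. Most knockdown 1 circles lie to the right of and below their cross (1547 against 990 bp, 4.13 against 4.98), size3 circles lie around theirs in fold (8.03 against 8.10), and knockdown 2 has 2.

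Counting bases in place of genes removes the double counting of packed genes. The Hox windows, merged, made 451.9 kb. Peaks covered 10.8%, 0.192% and 2.34% of them in knockdown 1, 2 and size3 and 0 in the 3 controls, a mean of 4.43% ± 5.59 (SD, n = 3) in knockdown (exact two-sided permutation p = 0.1, the smallest possible). Without knockdown 1 this mean was 1.26%. The windows of all protein-coding genes were covered to 2.03%, 0.0648% and 0.825% in the knockdown libraries, so that the Hox value was 5.31, 2.96 and 2.83 times as high. The knockdown 2 value rests on 2 peaks of 11 reads each, with a false discovery rate of 100%. In the controls, all gene windows were covered to 0.0234%, 0.00564% and 0.0758%. Windows of genes of at most 10 kb were covered to 4.26% and 1.52% in knockdown 1 and size3, and windows of 26 other homeobox factors of bone and limb to 7.49% and 1.41%. By cluster, knockdown 1 covered 11.2% of Hoxa, 7.11% of Hoxb, 11% of Hoxc and 14.3% of Hoxd windows, and size3 covered 2.25%, 3.99%, 1.64% and 1.35%. Hoxd was thus the most covered cluster in knockdown 1 and the least in size3. The Hox share of the list was 0.140%, 0.0443% and 0.0682% of peaks in knockdown 1, 2 and size3, a mean of 0.0842% ± 0.0499 (SD, n = 3), and 0 in the controls (exact permutation p = 0.1).

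**Figure D4:**
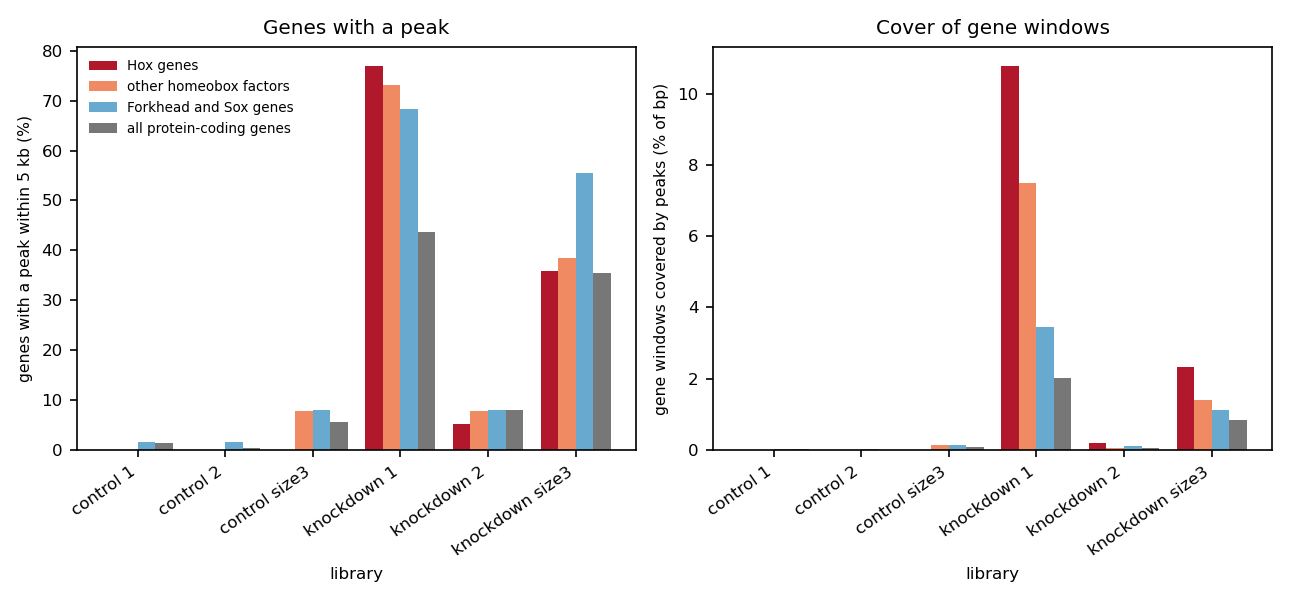
Left, percent of genes with a peak within 5 kb, and right, percent of the bases of the merged gene windows under a peak, per library, for Hox genes, other homeobox factors, Forkhead and Sox genes and all protein-coding genes (bars from 0). Hox bars are 0 in the 3 controls. In knockdown 1 the Hox bar is the highest in both panels (76.9% of genes, 10.8% of bases). On the left it is close there to the bars of other homeobox factors (73.1%) and Forkhead and Sox genes (68.3%). In size3 it is level with all genes on the left (35.9% and 35.5%). It is below the other homeobox factors (38.5%) and Forkhead and Sox genes (55.6%) there.

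Hox genes are short, with a median span of 3.74 kb against 17.2 kb over all protein-coding genes, and short genes had a peak less often. Of the 33 Hox genes of at most 10 kb, 24 (72.7%), 2 (6.06%) and 9 (27.3%) had a peak in knockdown 1, 2 and size3, against 25.6%, 1.54% and 19.2% of all 7926 genes of that length (controls 0.278%, 0.0505% and 1.64%). Against genes no longer than the longest Hox gene, the background was 35.5%, 3.5% and 27.8% (controls 0.458%, 0.11% and 3.14%). With only the gene span counted, 21 Hox genes (53.8%) had a peak in knockdown 1, 0 in knockdown 2 and 9 (23.1%) in size3, against 37.5%, 6.53% and 29.4% of all genes (controls 1.2%, 0.279% and 4.45%). Hox genes were compared with 3 other sets over the 6 libraries by exact two-sided sign permutation, where the smallest p is 0.03125. The share of Hox genes with a peak minus that of all genes had a mean of 3.94 points (higher in 2 of 6 libraries, permutation p = 0.9375, adjusted 0.9375). Against 63 Forkhead and Sox genes, another developmental family, it was -4.15 points (higher in 1 of 6, permutation p = 0.3125, adjusted 0.75). Against the 26 other homeobox factors it was -1.50 points (higher in 1 of 6, permutation p = 0.5, adjusted 0.75). Adjustment was by the Benjamini-Hochberg method over these 3 comparisons. Cover minus that of all gene windows, a comparison added after the values were seen, had a mean of 1.71 points and was positive in the 3 knockdown libraries (permutation p = 0.25). In knockdown 2 it was 0.127 points, from 2 peaks of 11 reads each. No comparison over libraries passed 0.05 under these settings. Without knockdown 1 the first mean was -1.91 points. In knockdown 1 itself, 76.9% of Hox genes, 73.1% of the other homeobox factors and 68.3% of Forkhead and Sox genes had a peak. In size3 these shares were 35.9%, 38.5% and 55.6%. A high share in knockdown 1 was thus not particular to Hox genes.

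Hox proteins bind DNA with TALE homeodomain partners of the Pbx, Meis and Pknox families. Of these 9 genes, 7 had a peak in knockdown 1, 2 in knockdown 2, 6 in size3, 3 in control size3 and 0 in control 1 and 2. Pbx3 had a 221-read peak in knockdown 1 at a gene end (chr2:34370983-34373970, fold 3.26), which held the size3 peak of 25 reads and fold 12.16, and an 8-read peak in knockdown 2. Pknox1 had no peak in knockdown 1, 1 in knockdown 2, 3 in size3 and 1 in control size3. Pbx4 had a control size3 peak of 21 reads (chr8:69848664-69849484, fold 8.88) that overlapped the knockdown size3 peak of 13 reads and fold 10.40, so a TALE gene, unlike any Hox gene, was met in both states.

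Polycomb proteins keep Hox clusters silent, and Trithorax proteins keep them active. Of 30 Polycomb genes, 20, 6 and 18 had a peak in knockdown 1, 2 and size3 and 4 in control size3. Rnf2, the catalytic subunit of the complex that ubiquitinates histone H2A, had a knockdown 1 peak of 119 reads (chr1:151499867-151501466, fold 3.63) around a size3 peak of 17 reads (fold 11.55) at a gene end, and 2 knockdown 2 peaks of 10 and 8 reads elsewhere in the gene. Suz12, a core subunit of the histone H3 methyltransferase complex, had no peak in knockdown 1, and had 8, 21 and 16 reads in knockdown 2, size3 and control size3, each at a different place. Phc3 had a control size3 peak (19 reads, fold 8.33) inside a knockdown size3 peak of 39 reads (chr3:30968589-30969648, fold 8.22). Pcgf5 had 6, 1 and 4 peaks in knockdown 1, 2 and size3, and 0 in the controls. Of 10 genes of the Trithorax group, counted with Ctcf, 5, 2 and 4 had a peak in knockdown 1, 2 and size3 and 1 in control size3. Kmt2a, a histone H3 methyltransferase known to maintain Hox expression, had a 176-read peak at a gene end in knockdown 1 (chr9:44879398-44882908, fold 3.72) and a 9-read peak in knockdown 2. Kdm6b, which removes the Polycomb mark, had 263 reads at a fold of 3.97 in knockdown 1 and 3 peaks in size3, all in other places. Dpy30 had 1, 2 and 1 peaks in knockdown 1, 2 and size3. Kmt2b had 2 peaks in knockdown 1 and 1 in size3, also apart. As shares, TALE (77.8%) and Polycomb genes (66.7%) were above the 43.7% of all genes in knockdown 1, with 66.7% and 60% against 35.5% in size3. The Trithorax list with Ctcf (50% in knockdown 1 and 40% in size3) lay near these 2 backgrounds. Evx and ParaHox genes (37.5% and 50%) lay below that of knockdown 1 and above that of size3. In knockdown 2 the TALE, Polycomb and Trithorax shares were 22.2%, 20% and 20%, on 2, 6 and 2 genes, against 7.95% of all genes. In control size3 they were 33.3%, 13.3% and 10%, against 5.49%. These control shares were above the background too, but rested on 3, 4 and 1 genes, too few to read as a difference. The control size3 peaks at these genes had false discovery rates of 58.99 to 91.43%. Evx and ParaHox genes were at 0 in both knockdown 2 and control size3. The part of gene length in these shares was not tested.

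Among the 26 other homeobox factors of bone and limb, 19, 2 and 10 had a peak in knockdown 1, 2 and size3, and 2 in control size3. The knockdown shares were 73.1%, 7.69% and 38.5%, against 43.7%, 7.95% and 35.5% of all genes. In control size3 the share was 7.69%, against 5.49%. This list was thus above the background in knockdown 1 and near it in knockdown 2 and size3. Prrx2, a limb mesenchyme factor, had 155 reads at a fold of 3.77 in knockdown 1 (chr2:30855501-30858921), a size3 peak of 34 reads within that stretch and a control size3 peak of 17 reads elsewhere. Dlx3, an osteoblast and hair factor, had 66, 17 and 34 reads in knockdown 1, 2 and size3, and its knockdown 2 peak lay within the size3 peak at chr11:95121249-95122441. Prrx1 had peaks in knockdown 2 and size3 (8 and 27 reads). Of the 8 Evx and ParaHox genes, relatives of the Hox genes, 3 had a peak in knockdown 1, 0 in knockdown 2, 4 in size3 and 0 in the controls. Evx2, next to Hoxd13, had peaks of 31 and 62 reads in knockdown 1 (folds 6.29 and 3.72) and 16 reads in size3 (chr2:74655920-74656612, fold 10.31), none of them shared. Pdx1, a pancreas factor, had 42 reads in knockdown 1 and 21 in size3, at different places.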

How the data were processed

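Peak lists of 6 MACF1 immunoprecipitates from MC3T3-E1 cells were used. The submitters' processing notes name cutadapt, Bowtie2 and the build GRCm38. Per the file headers, the authors ran MACS 1.4.2 once per immunoprecipitate, with the matching input as control and no pooling of replicates. The p cutoff was 1.00e-05, the band width 300 bp, and a position kept at most 1 read. The deposited read count of a peak is a whole number of reads after duplicate removal. The deposited score is the peak's p-value as a negative log10, multiplied by 10, the deposited fold enrichment is a ratio to the local input background, and the deposited false discovery rate is in percent, from swapping immunoprecipitate and input. These values served only within a list. A list holds only regions past the cutoff, so a gene without a peak is not shown to lack signal.

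Gene spans, promoter windows and miRNA sequences came from RefSeq tables of GRCm38.p6. A promoter window was looked up by symbol and matched 22 of 39 Hox genes; 18 of 19 cluster neighbours matched. Libraries were grouped by their labels and compared by exact permutation (20 assignments, or 64 sign arrangements). The steps were written in Python 3.11.15 with pandas 2.3.3, numpy 2.4.6 and scipy 1.17.1; in simulated lists, 200 of 200 planted genes were found for both knockdown 1 and knockdown size3. The Hox genes and the gene lists were chosen with earlier results of these data known. By rule, Hox genes with a peak in at least 2 libraries were described, up to 12 by number of libraries and highest fold, with the peaks of most reads and highest fold per cluster and library and up to 4 members of each other list; remarks on other genes were chosen after their values were seen. Results for a few genes are not given here. Alternatives covered stricter peaks, other flanks and overlaps, equal list lengths, the label as a block, the median and each library left out.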

Additional observations from a re-analysis of the deposited data

How the results depend on the processing

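Over 9 results and 144 alternatives, 132 kept their direction and side of 0.05 or fell to 0, 10 reversed, and 2 kept their direction and passed 0.05. Those that fell to 0 did so with equal list lengths. Much of this tally was fixed in advance. Comparisons of knockdown with control could not pass 0.05, because their smallest p is 0.1. With no Hox peak in any control list, differences in Hox genes with a peak, Hox peaks, cover and share of the list could not turn negative. Of the reversed ones, 2 also had p = 0.03125 by permutation of signs, both with the best 198 peaks of each list. No library then had a Hox peak, so every difference was negative and that p was fixed. It carries no information on Hox genes beyond their absence from those peaks. In percentage points, the share of Hox genes with a peak minus that of all genes reversed to -0.406 without a flank and to -0.602 with the best 198 peaks of each list (sign permutation p = 0.03125), where no library had a Hox peak at all, and ranged from -1.91 (without knockdown 1) to 5.83 with 1 library left out. With those equal lists, the knockdown minus control difference in this excess was -0.384 and cover minus that of all gene windows was -0.0178 (sign permutation p = 0.03125). Against Forkhead and Sox genes the mean became 0.0611 at a false discovery rate of at most 5%, 0.163 with knockdown lists as long as the control list of their label (an alternative chosen after seeing the data), and -8.08 without a flank and -7.06 with a 1 kb flank (permutation p = 0.03125 for each, unadjusted). Against other homeobox factors it became 2.78, 2.14 and 1.28 at that rate, with those shortened lists and at a score of at least 100. The cause of these changes was not tested, except that equal lists hold fewer peaks by construction.

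Hox genes with a peak in knockdown 1, 2 and size3 were also counted under other settings, beside the share of all genes. At a score of at least 100 these were 11, 0 and 1 (28.2%, 0 and 2.56%), against 9.98%, 0.393% and 3.55%. At a false discovery rate of at most 5% they were 29, 0 and 12 (74.4%, 0 and 30.8%), against 43.2%, 0.032% and 25.1%. Without a flank they were 21, 0 and 9 (53.8%, 0 and 23.1%), against 37.5%, 6.53% and 29.4%. With 10 kb they were 32, 4 and 19 (82.1%, 10.3% and 48.7%), against 49.4%, 9.58% and 40.8%. With the shortened lists (772, 198 and 2196 peaks) they were 7, 0 and 7 (17.9%, 0 and 17.9%), against 4.00%, 0.238% and 7.91%. In all of these settings no control library had a Hox gene with a peak. Only the 10 kb flank could have given one. The other settings left the control lists as they were, removed peaks or narrowed the window, so their 0 was fixed in advance. At the 5 kb edge, Hoxb1 (4.14 kb) and Hoxa13 (4.29 kb) were the last inside for knockdown 1 and Hoxd13 (7.93 kb) the next outside; for size3 Hoxd12 (4.22 kb) was the last inside. The Hox share of the list could not be given at the 5% rate, because 2 control lists were then empty. With the label as a replicate block, the difference of 39.3 points in genes with a peak had an exact permutation p of 0.25, the smallest that 8 arrangements can give. Same-labelled libraries deviated together for some labels only (r = -0.24, 0.20 and 0.38 for 1, 2 and size3 over 2454 bins of 1 Mb). Control 2 and control size3 each correlated best with the knockdown library of their own label, whereas control 1 did so with knockdown 2 (r = 0.36). Because the labels did not match throughout, they were not treated as pairs in the main tests.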

Other observations

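Of 18 protein-coding neighbours of the clusters, 8 had a peak in knockdown 1, 2 in knockdown 2, 6 in size3, 1 in control 2 and 1 in control size3. As shares, 44.4%, 11.1% and 33.3% in knockdown 1, 2 and size3 stood beside 43.7%, 7.95% and 35.5% of all genes. Hibadh, beyond the Hoxa cluster, had a control 2 peak of 35 reads and 2 knockdown 2 peaks of 8 and 9 reads, and none in knockdown 1. Cbx5, a heterochromatin protein gene near the Hoxc cluster, had 14 reads in control size3 and 8 in knockdown 2. Skap2, also beyond the Hoxa cluster, had a knockdown 1 peak of 67 reads (chr6:52005775-52007202, fold 6.08) that held a size3 peak of 13 reads and fold 7.20. No Hox peak also counted for a neighbour.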
